A study of Mus musculus with 13 samples.

Results

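The genes described here encode 3 families of phase II conjugating enzymes: the UDP-glucuronosyltransferases (Ugt), the cytosolic sulfotransferases (Sult) and the soluble glutathione transferases (Gst). They were taken by symbol, as all genes whose names begin with Ugt or Sult and a number or with Gst, a class letter and a number, among probe sets that name 1 gene in the platform annotation. Where a gene had several probe sets, the brightest on average over the 13 arrays stands for it. This gave 44 of 18193 genes, of which 11 are Ugt, 13 are Sult and 20 are Gst genes. The choice used symbols and mean levels and no difference between groups.

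Messenger RNA was measured on 13 Affymetrix arrays, each with RNA of 1 frozen tissue sample. Mir-122 knockout mice gave 8 liver tumours, 3 at 11 months of age and 5 at 14 months. Wild-type mice gave 5 control livers, 2 at 11 months and 3 at 14 months. All mice were of the B6/129 background. The labels name no promoter or Cre for the deletion. Tumour-free liver of knockout mice was not analysed here, so the genotype and the tumour cannot be told apart. The labels do not say whether the tumours came from separate mice, and the p-values therefore measure the spread between these samples. All levels are the authors' log2 values, and a difference of 1 is a 2-fold change.

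Conjugation makes fat-soluble compounds water-soluble so that they can leave the hepatocyte in bile or blood. Ugt enzymes sit in the endoplasmic reticulum and transfer a sugar, usually glucuronic acid, to bilirubin, steroids, bile acids and drugs. Sult enzymes work in the cytosol and transfer sulfate from the activated donor PAPS, while Gst enzymes couple glutathione to reactive, electrophilic compounds. Many Gst genes are known targets of NRF2 (gene Nfe2l2), the transcription factor of the oxidative stress response, and many Ugt and Sult genes are known targets of nuclear receptors and of factors that maintain the hepatocyte.

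The log2 difference between probes at the 3 prime and 5 prime ends was -0.17 to 0.02 in tumours and -0.14 to 0.14 in controls for Gapdh, and 0.39 to 0.76 in tumours and 0.49 to 0.93 in controls for Actb. Hepatocyte markers were high in all samples: albumin averaged 14.64 in tumours and 14.65 in controls, and 0 of 8 measured hepatocyte markers passed the test of tumours against controls. Albumin stood near the top of the array's scale (14.84), where values can be compressed. The summed linear level of the 8 hepatocyte markers was 88340 to 117500 in tumours against 108600 to 118800 in controls. Some markers of other cells differed, and over all genes 10.3% were higher and 9.81% lower. The summed linear level of 8 macrophage markers was 4907 to 14320 in tumours against 3064 to 4055 in controls, with Cd68 and Cd14 higher, while the list median log2 fold change was -0.41. Clec4f, Timd4, Vsig4 and Marco had log2 fold changes of -2.16, -1.87, -1.86 and -1.09 and did not pass (adjusted p from 0.0619 to 0.180, limma). That of 8 stellate cell and fibroblast markers was 2521 to 14840 in tumours against 2549 to 3692 in controls, with 4 higher and 1 lower, and 3 of 8 endothelial markers were higher. Of 8 cholangiocyte and progenitor markers, Prom1 and Tspan8 were higher, with a summed level of 711 to 2023 in tumours against 205 to 314.5 in controls. The defining cholangiocyte keratins were low: Krt19 averaged 5.13 in tumours and 5.11 in controls and Krt7 averaged 4.28 in tumours and 4.16 in controls, against a median of 5.16 over all probe sets. Mki67 was higher among 7 proliferation markers, while 0 of 7 lymphocyte and 0 of 3 red blood cell markers passed. Of 6 kidney and intestine markers Vil1 was higher. The part of these cells in the results below was not tested, and in bulk tissue fewer cells of a type and less RNA per cell cannot be told apart.

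A pair of control livers of different ages, the 11-month replicate 1 and the 14-month replicate 3, were nearly identical. Their correlation over all probe sets was 0.995 and 58 probe sets differed by over 2-fold, while the other pairs of controls reached at most 0.990 and differed in 485 to 1310 probe sets. The pair lay above each of the other 3 controls, with a mean at least 2-fold higher, in 6 of the 44 conjugation genes (13.6%), against 1.38% of all genes. These were Ugt2b37, Sult1e1, Gsta2, Gstm2, Gstm3 and Gstm4. By the same measure of means without overlap, Ugt2b38 and Ugt3a1 were at least 2-fold lower in the pair, as were 70 of all 18193 genes. Results are therefore given with all arrays and, where the call changes, without the pair, which leaves 1 control at 11 months.

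The families differed in how many members passed the test of tumours against controls (limma on all 13 arrays, ages weighted equally, Benjamini-Hochberg over all genes, threshold 0.05). Of the Ugt genes 0 were higher and 7 of 11 lower (63.6%), and 5 of these fell by at least 2-fold. Of the Sult genes 0 were higher and 3 of 13 lower (23.1%), each by at least 2-fold. Of the Gst genes 2 were higher and 2 lower of 20 (20%). Over all genes 20.1% passed, 10.3% higher and 9.81% lower. The Gst shares, 10% higher and 10% lower, lie near this background in both directions. The Ugt and Sult shares of lower genes, 63.6% and 23.1%, lie above the 9.81%, and neither family had a higher gene. The Sult share rests on 3 genes, and 6 of the 13 Sult genes were below the median of all probe sets in both groups. The median log2 fold change was -0.90 for Ugt, -0.05 for Sult, -0.06 for Gst and -0.05 for all genes. Members of a family share ancestry, and some share a neighbourhood on the chromosome and related probe sequences, and no test between families was made.

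**Figure D1:**
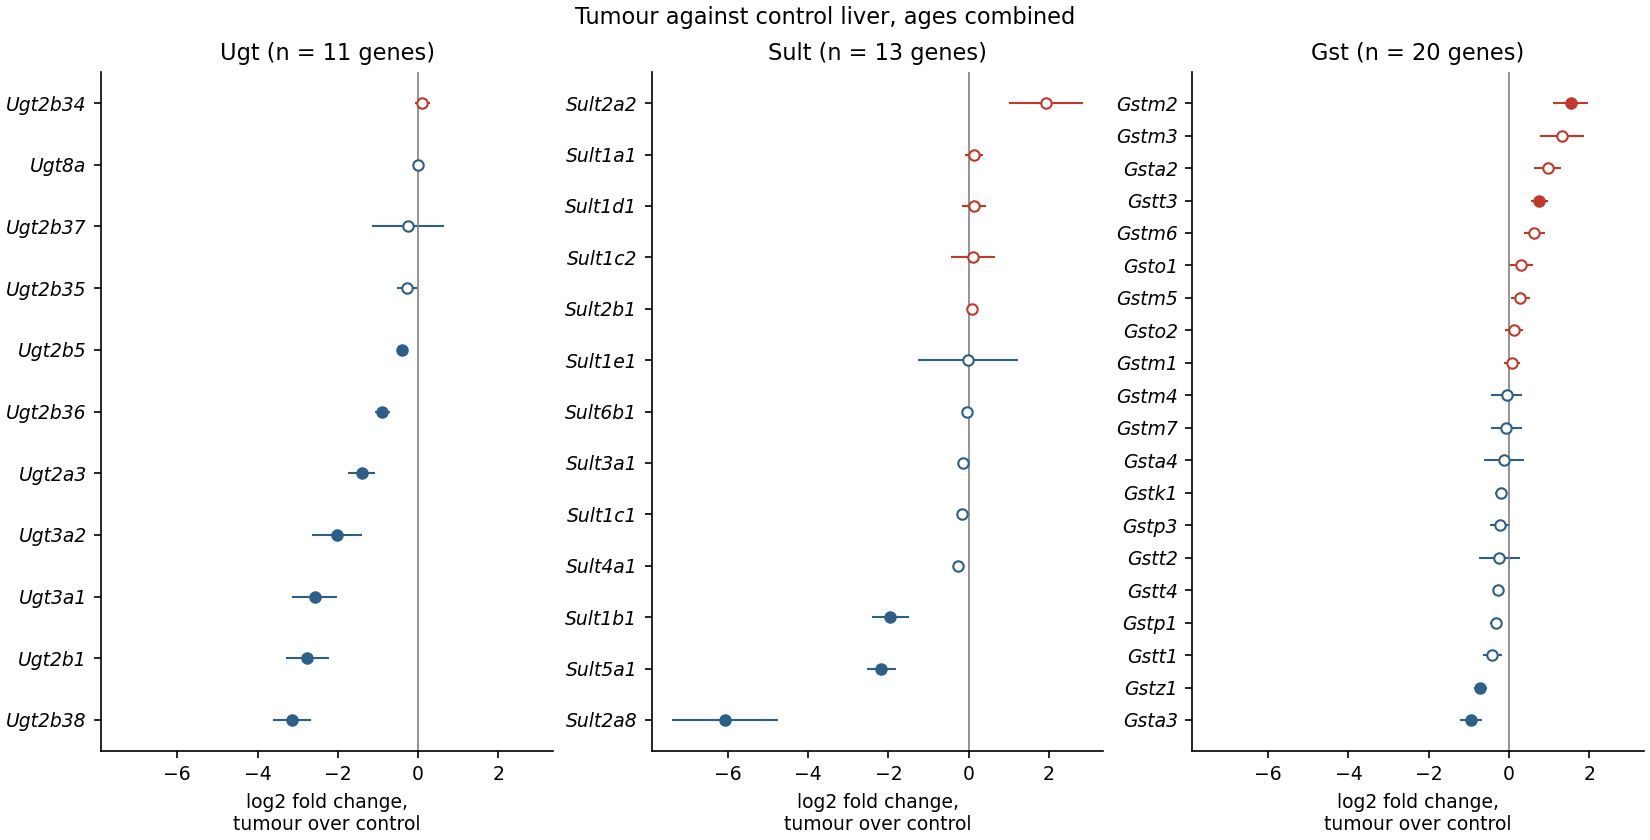
Log2 fold change of tumours over controls for each Ugt, Sult and Gst gene, with the ages weighted equally; points are estimates, lines show 1 standard error, red and blue mark values above and below 0, and filled points passed the threshold. The 7 Ugt genes past the threshold all lie below 0, Sult2a8 reaches -6.07, and the Gst genes lie on both sides of 0.

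Without the nearly identical pair 2 Ugt genes (Ugt2b38 and Ugt3a1), 1 Sult gene (Sult5a1) and 3 Gst genes passed, the Gst genes now all higher (Gsta2, Gstm2 and Gstm3), against 7.52% of all genes. Leaving out the 11-month control replicate 2 alone also leaves 1 control at 11 months. Fewer Ugt and Gst genes then passed, and fewer of all genes passed as well.

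The Ugt2b genes, which carry most hepatic glucuronidation of steroids and many drugs, included the largest falls of the Ugt family. Ugt2b38 had a lowest, median and highest level of 3.86, 4.22 and 6.13 in the 8 tumours, against 6.68, 8.90, 7.44, 8.73 and 6.79 in the 5 controls. Every tumour lay below every control, and 7 of the 8 tumours were below the median of all probe sets. The log2 fold change was -3.15 (SE 0.48, adjusted p = 0.00167, limma), and without the nearly identical pair it was -3.92 (adjusted p = 0.0033, limma).

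Ugt2b1 ranged over 8.45, 10.41 and 11.89 in tumours (lowest, median, highest), against 12.79, 12.75, 12.99, 12.64 and 12.77 in controls. The controls lay close together and the tumours spread widely, all of them below the controls. This gave a log2 fold change of -2.76 (SE 0.53, adjusted p = 0.00548, limma). Without the nearly identical pair the log2 fold change was -2.76 (adjusted p = 0.0517, limma).

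Ugt2b36 and Ugt2b5 were among the most abundant members and fell by less than 2-fold. Ugt2b36 averaged 12.44 ± 0.38 in tumours and 13.36 ± 0.12 in controls (SD, n = 8 and 5), a log2 fold change of -0.90 (adjusted p = 0.00729, limma). Ugt2b5 averaged 12.82 ± 0.19 in tumours and 13.23 ± 0.10 in controls, a log2 fold change of -0.39 (adjusted p = 0.0251, limma). For both, every tumour lay below every control, and neither passed without the nearly identical pair. Values this near the top of the array's scale, which ended at 14.84, can be compressed.

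The other Ugt2b genes did not pass. Ugt2b35 had a log2 fold change of -0.28 (adjusted p = 0.431, limma), which was 0.024 without the nearly identical pair. Ugt2b34 had one of 0.11 (adjusted p = 0.704, limma). Ugt2b37 had 4.55, 9.49 and 7.70 in the 11-month tumours and 5.70, 6.17, 5.72, 4.29 and 6.19 in the 14-month tumours, against 8.43 and 5.61 in 11-month and 5.65, 4.80 and 8.61 in 14-month controls. The 2 highest controls are the nearly identical pair, the tumours span the whole range of the controls, and the log2 fold change of -0.25 (adjusted p = 0.859, limma) became 1.02 without the pair.

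Ugt2b38, Ugt2b5 and Ugt2b37 have closely related promoters, which are shown because these neighbouring genes had different fold changes (-3.15, -0.39 and -0.25). The 250 bases upstream of each annotated start are from RefSeq (GRCm38.p6), at chr5:87424204-87424453 for Ugt2b38, chr5:87140341-87140590 for Ugt2b5 and chr5:87254789-87255038 for Ugt2b37, all on the minus strand and written 5′ to 3′, with the 62-base longest run shared by all in capitals.
Ugt2b38: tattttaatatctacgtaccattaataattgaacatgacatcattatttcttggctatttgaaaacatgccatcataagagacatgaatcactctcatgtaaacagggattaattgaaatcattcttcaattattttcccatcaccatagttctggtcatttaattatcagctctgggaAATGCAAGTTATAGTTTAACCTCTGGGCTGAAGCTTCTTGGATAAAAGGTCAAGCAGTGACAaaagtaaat
Ugt2b5: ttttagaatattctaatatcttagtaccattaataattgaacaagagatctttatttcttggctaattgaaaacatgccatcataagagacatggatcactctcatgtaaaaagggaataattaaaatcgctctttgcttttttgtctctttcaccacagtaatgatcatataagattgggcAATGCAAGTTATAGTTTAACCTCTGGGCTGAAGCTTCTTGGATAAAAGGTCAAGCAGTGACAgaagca
Ugt2b37: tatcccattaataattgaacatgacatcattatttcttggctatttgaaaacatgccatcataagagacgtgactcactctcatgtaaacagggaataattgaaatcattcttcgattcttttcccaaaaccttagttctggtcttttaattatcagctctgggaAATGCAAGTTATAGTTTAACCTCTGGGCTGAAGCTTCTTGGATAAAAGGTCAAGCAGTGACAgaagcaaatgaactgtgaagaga
The shared run begins 71, 68 and 85 bases upstream of the start of Ugt2b38, Ugt2b5 and Ugt2b37. Aligned windows were 85.2% identical between Ugt2b37 and Ugt2b38 (225 of 264 columns), 81.5% between Ugt2b38 and Ugt2b5, and 73.0% between Ugt2b37 and Ugt2b5. The other pairs of members within a family reached at most 60.4%. Probe sequences of such close relatives may detect more than 1 of them, which was not tested, although none of the probe sets for this trio carries a suffix for shared sequence.

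Ugt2a3, whose human counterpart acts on bile acids, lies in the same run of genes. It ranged over 9.04, 9.58 and 10.85 in tumours (lowest, median, highest), against 11.14, 11.45, 11.04, 11.31 and 11.21 in controls. All tumours lay below all controls, and the log2 fold change was -1.41 (SE 0.33, adjusted p = 0.0131, limma). It did not pass without the nearly identical pair. A probe set shared by Ugt2a1 and Ugt2a2 was below the median of all probe sets, at 4.18 in tumours and 4.55 in controls, and was lower in tumours with a log2 fold change of -0.35 (adjusted p = 0.0278, limma over all probe sets).

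Ugt3a enzymes use other sugars than glucuronic acid, as known for the human proteins. Ugt3a1 ranged over 5.37, 6.69 and 8.76 in tumours (lowest, median, highest), against 9.02, 10.07, 10.40, 10.17 and 9.39 in controls, a log2 fold change of -2.58 (SE 0.57, adjusted p = 0.0102, limma). Its neighbour Ugt3a2 ranged over 7.99, 10.41 and 11.88 in tumours, against 12.20, 12.23, 12.05, 11.91 and 12.14 in controls. The log2 fold change of Ugt3a2 was -2.03 (SE 0.63, adjusted p = 0.0415, limma), and it did not pass without any one of 7 single arrays, the 5 controls and the 14-month tumour replicates 1 and 5. All tumours were below all controls in both genes, and replicate 3 of the 11-month and replicate 3 of the 14-month tumours were the 2 lowest in both.

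The Ugt1a locus, which makes the bilirubin-conjugating enzyme Ugt1a1 and its relatives from alternative first exons, was read by 3 probe sets that name 8 Ugt1a genes and are outside the 44. Their log2 fold changes were -0.14, -0.09 and -0.16 (adjusted p from 0.647 to 0.708, limma over all probe sets). They averaged 12.76 to 13.36 in tumours and 12.93 to 13.45 in controls. Ugt8a, the galactosyltransferase of myelin lipids, was below the median of all probe sets in both groups with a log2 fold change of -0.01.

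In non-overlap between groups, 7 of 11 Ugt genes had all tumours below all controls, as had 2 of 13 Sult genes (Sult2a8 and Sult1b1) and 0 of 20 Gst genes. The share over all genes was 5.07% with tumours below and 6.22% with tumours above.

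**Figure D2:**
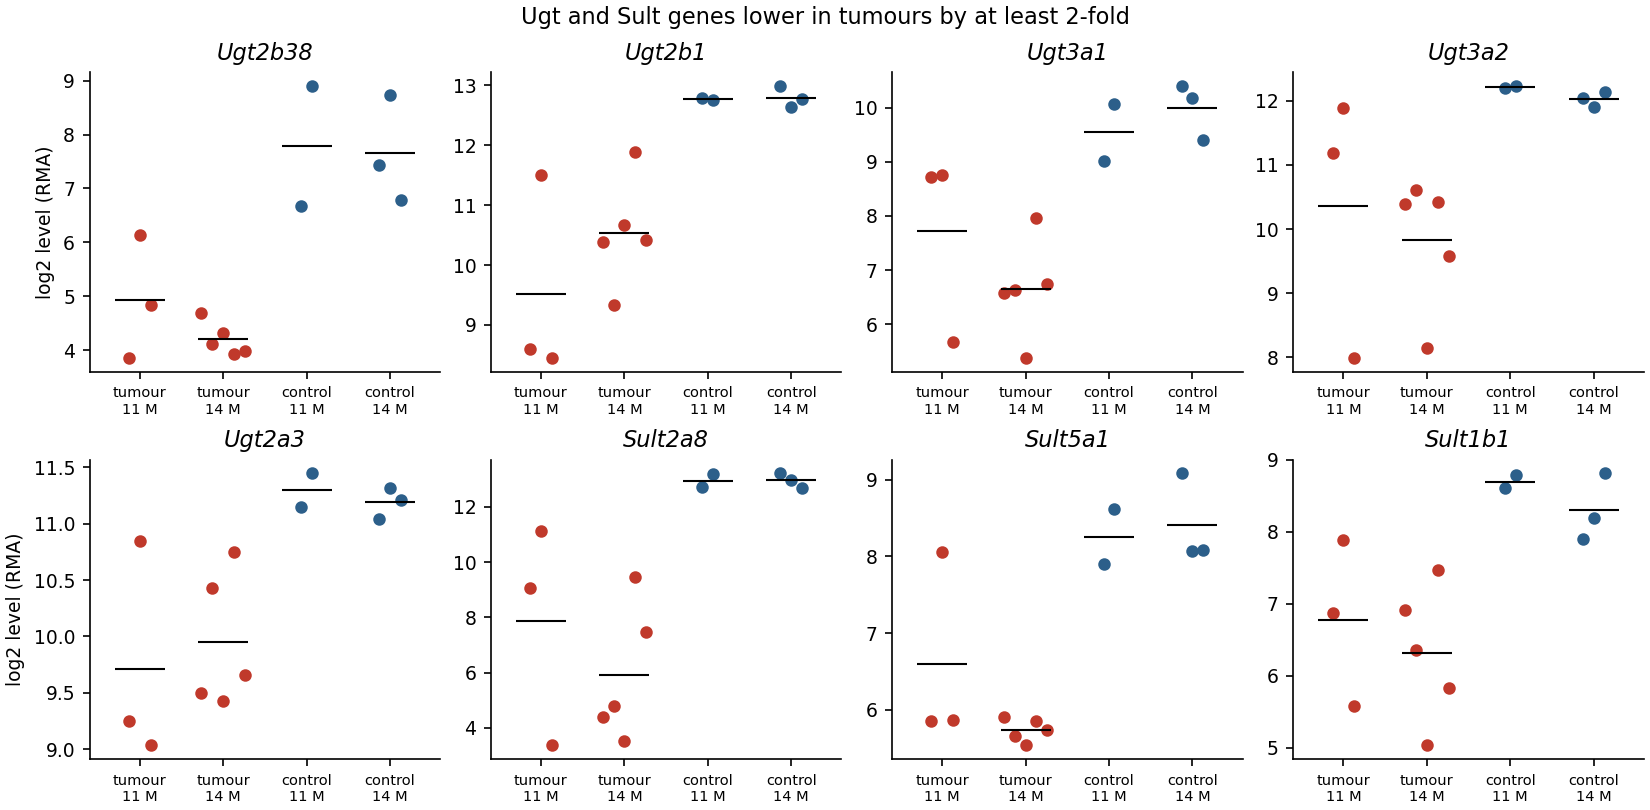
Log2 level in each array for the 8 Ugt and Sult genes that fell by at least 2-fold, with tumours on the left of each panel and controls on the right, split by age; points are single arrays and horizontal bars group means, and each panel has its own axis. In Sult2a8 the tumours reach from 3.37 to 11.15 while the controls stay between 12.70 and 13.22.

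Among the sulfotransferases, Sult2a8, a mouse liver enzyme that sulfates bile acids, had the largest change of all 44 genes. It was at 9.05, 11.15 and 3.37 in the 11-month tumours and at 4.40, 4.81, 3.53, 9.45 and 7.46 in the 14-month tumours, against 12.71 and 13.20 in the 11-month and 13.22, 12.98 and 12.70 in the 14-month controls. Every tumour was below every control, and 4 tumours were under the median of all probe sets of 5.16. Sult2a8 thus had a log2 fold change of -6.07 (SE 1.31, adjusted p = 0.0091, limma), with an SD of 3.01 among tumours against 0.26 among controls. Without the nearly identical pair the log2 fold change was -6.26 (adjusted p = 0.0654, limma).

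Sult5a1 ranged over 5.53, 5.85 and 8.05 in tumours (lowest, median, highest), against 7.91, 8.61, 9.09, 8.07 and 8.08 in controls. The 11-month tumour replicate 2 lay within the control range and the other 7 tumours, at 5.90 or less, lay below it. Between the groups the log2 fold change was -2.17 (SE 0.36, adjusted p = 0.00267, limma), and -2.43 without the nearly identical pair (adjusted p = 0.0194, limma).

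Sult1b1, an enzyme for thyroid hormones and small phenols, ranged over 5.04, 6.61 and 7.89 in tumours, against 8.61, 8.78, 7.91, 8.19 and 8.82 in controls. The groups did not overlap, although the highest tumour and the lowest control were 7.89 and 7.91. The log2 fold change was -1.95 (SE 0.45, adjusted p = 0.0130, limma), and it did not pass without the nearly identical pair.

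Sult2a2, a hydroxysteroid sulfotransferase, did not pass (log2 fold change 1.92, adjusted p = 0.154, limma). It was at 10.39, 3.59 and 4.98 in the 11-month tumours and at 3.47, 3.96, 3.64, 3.97 and 5.25 in the 14-month tumours, against 3.46 and 3.13 in the 11-month and 3.43, 3.10 and 3.20 in the 14-month controls. All tumours were above all controls, 1 tumour stood far above the rest, and 6 tumours and all controls were below 5.

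Sult1e1, which sulfates estrogens and is known to be low in healthy mouse liver, varied in both groups. It had 3.67, 7.27 and 3.68 in the 11-month tumours and 5.28, 9.60, 5.78, 3.36 and 3.99 in the 14-month tumours, against 7.64 and 3.18 in the 11-month and 4.56, 3.27 and 7.43 in the 14-month controls. The 2 high controls are the nearly identical pair, and the log2 fold change of -0.01 (SE 1.25) was 1.69 without it (adjusted p = 0.46, limma).

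The abundant Sult1a1, which acts on phenols, and Sult1d1, which acts on catecholamines in mice, had log2 fold changes of 0.14 and 0.12 and did not pass. A further probe set of Sult1d1 had one of -0.20 (adjusted p = 0.703, limma over all probe sets). The remaining members, Sult1c1, Sult1c2, Sult2b1, Sult3a1, Sult4a1 and Sult6b1, ranged from -0.26 (Sult4a1, adjusted p = 0.0579, limma) to 0.11, with none past the threshold. Of the 13 Sult genes 6 were below the median of all probe sets in both groups (Sult1c1, Sult2a2, Sult2b1, Sult3a1, Sult4a1 and Sult6b1).

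Among the glutathione transferases, the mu class lies in a run of 7 genes. Gstm2 was at 10.67, 10.47 and 11.05 in the 11-month tumours and at 10.76, 10.72, 10.26, 12.21 and 10.22 in the 14-month tumours, against 10.11 and 8.77 in the 11-month and 8.75, 8.20 and 10.24 in the 14-month controls. The nearly identical pair stood at the level of the lowest tumours and the other 3 controls were below 9. With all arrays the log2 fold change was 1.53 (SE 0.43, adjusted p = 0.0276, limma), and 2.16 without the pair (adjusted p = 0.0190, limma). It did not pass when the 11-month control replicate 2, the 14-month control replicate 1 or 2 or the 11-month tumour replicate 3 was left out.

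Gstm3 showed the same split of controls. It had 13.48, 12.93 and 13.03 in the 11-month tumours and 13.13, 12.55, 13.25, 14.27 and 12.60 in the 14-month tumours, against 13.38 and 10.87 in the 11-month and 10.48, 10.83 and 13.28 in the 14-month controls. Its log2 fold change was 1.33 with all arrays (adjusted p = 0.107, limma) and 2.39 without the pair (adjusted p = 0.00818, limma). The other mu genes did not pass, with Gstm6 at 0.63 (adjusted p = 0.106, limma), Gstm5 at 0.28, Gstm1 at 0.08, and Gstm4 and Gstm7 at -0.06 each.

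In the alpha class, Gsta3, known in mice for detoxifying aflatoxin, was lower and Gsta2 did not pass. Gsta3 ranged over 11.73, 12.51 and 13.39 in tumours (lowest, median, highest), against 13.41, 13.30, 13.45, 13.32 and 13.46 in controls. The 11-month tumour replicate 2 was inside the control range and the other 7 were below it. The log2 fold change was -0.94 (SE 0.27, adjusted p = 0.0339, limma), it did not pass in 11 of the 13 fits that each left out 1 array, and a further probe set of the gene had one of -1.33.

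Gsta2 was at 11.06, 11.51 and 11.79 in the 11-month tumours and at 12.45, 12.38, 12.30, 13.01 and 12.13 in the 14-month tumours, against 11.91 and 10.42 in the 11-month and 10.28, 10.21 and 11.98 in the 14-month controls. Its log2 fold change was 0.96 with all arrays (adjusted p = 0.0692, limma) and 1.62 without the nearly identical pair (adjusted p = 0.00485, limma). A probe set shared by Gsta2, Gsta1 and Gm3776 had a log2 fold change of 1.48 (adjusted p = 0.138, limma over all probe sets). In it the nearly identical pair was at 12.71 and 12.91 and the other controls at 9.84, 9.45 and 9.52. Gsta4, which conjugates products of lipid peroxidation, had a log2 fold change of -0.12. Its level was 12.50 in 1 tumour and 9.22 to 10.29 in the others.

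**Figure D3:**
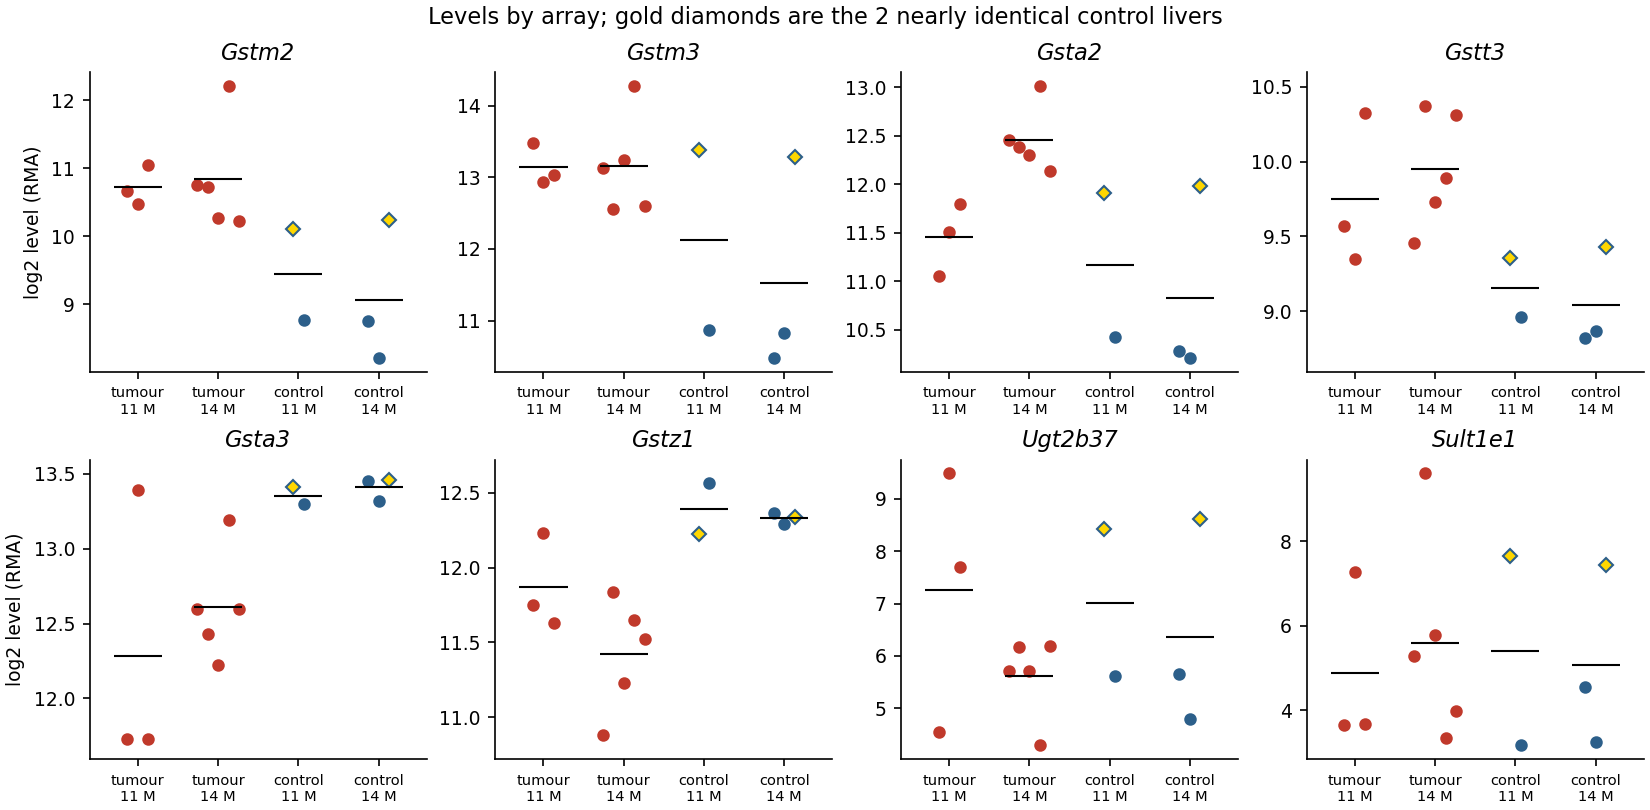
Log2 level in each array for 6 Gst genes and for Ugt2b37 and Sult1e1, with tumours on the left of each panel and controls on the right, split by age; points are single arrays, bars are group means, and gold diamonds mark the pair. In Gstm3 the pair lies at 13.38 and 13.28 among the tumours, and the other 3 controls lie between 10.48 and 10.87.

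In the theta class, Gstt3 averaged 9.88 ± 0.41 in tumours and 9.09 ± 0.28 in controls (SD, n = 8 and 5), a log2 fold change of 0.75 (adjusted p = 0.0313, limma). Gstt1 had a log2 fold change of -0.41 (adjusted p = 0.245, limma), Gstt2 one of -0.24 and Gstt4 one of -0.26. Gstz1, the zeta enzyme that isomerises maleylacetoacetate in tyrosine breakdown, averaged 11.59 ± 0.40 in tumours and 12.36 ± 0.13 in controls, a log2 fold change of -0.72 (adjusted p = 0.0133, limma). Neither Gstt3 nor Gstz1 passed without the nearly identical pair.

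The pi, kappa and omega classes had no member past the threshold. Gstp1, one of the most abundant Gst transcripts of mouse liver, ranged over 13.003, 13.89 and 14.28 in tumours (lowest, median, highest), against 13.93 to 14.20 in controls, with a log2 fold change of -0.33 (adjusted p = 0.142, limma). Gstp3 had a log2 fold change of -0.23, Gstk1 one of -0.21, Gsto1 one of 0.30 and Gsto2 one of 0.13.

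On the chromosome, Ugt2b, Ugt2a and 3 Sult1 genes form a run of 13 genes on chromosome 5, of which 11 were measured, with 6 lower, against 9.81% of all genes, and 5 not past the threshold. The measured genes run in the order Ugt2b34, Ugt2b1, Ugt2b35, Ugt2b36, Ugt2b5, Ugt2b37, Ugt2a3, Ugt2b38, Sult1b1, Sult1d1 and Sult1e1. Ugt2b34, Ugt2b35, Ugt2b37, Sult1d1 and Sult1e1 did not pass and stand among the lower genes or at an end of the run. In the mu run on chromosome 3, 1 of 7 genes passed, against 20.1% of all genes, and Gstm3 and Gstm2, which had the largest fold changes, are neighbours. Sult2a8 and Sult2a2, at -6.07 and 1.92, are the measured members of a run of 8 Sult2a genes on chromosome 7.

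**Figure D4:**
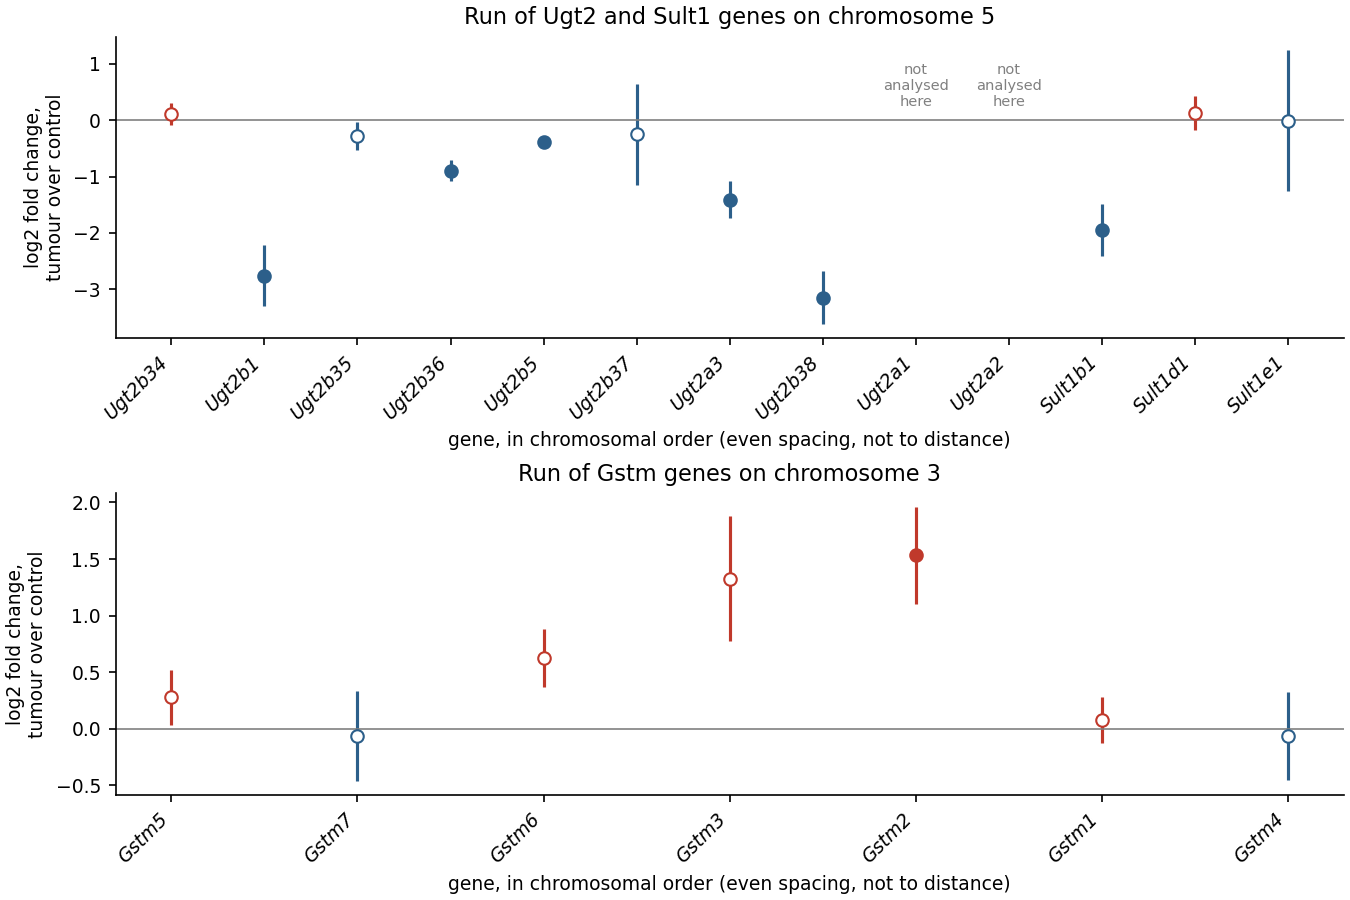
Log2 fold change of tumours over controls along the gene runs on chromosomes 5 and 3, in chromosomal order with even spacing; points are estimates, lines show 1 standard error, red and blue mark values above and below 0, and filled points passed the threshold. On chromosome 5 the 6 lower genes stand among 5 that did not pass.

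Short motifs were counted in the 250 bases upstream of the starts, on both strands, for the 39 members with a RefSeq window (50 windows). The core of the antioxidant response element bound by NRF2 (TGACNNNGC) was in 10.2% of all 32851 promoter windows. Windows of Gsta3, Gstm5 and Gstm7 held it, and none of 10 Ugt or 14 Sult windows did. The window of Gsta3 is shown because it holds the motif, in capitals, 121 bases upstream of the start while the gene was lower in tumours; it lies at chr1:21240335-21240584 on the plus strand (GRCm38.p6).
Gsta3: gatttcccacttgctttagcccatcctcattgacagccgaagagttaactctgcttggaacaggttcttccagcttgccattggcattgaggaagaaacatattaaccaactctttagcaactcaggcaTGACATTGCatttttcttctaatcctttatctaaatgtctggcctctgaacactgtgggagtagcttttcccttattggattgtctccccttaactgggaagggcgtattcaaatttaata
An HNF1 half-site (GTTAAT) was in 6.43% of all windows and in those of Ugt2a3, Ugt3a1, Sult1a1, Sult1d1 and Gsta3. A C/EBP motif (TTGCNNAA) was in 9.56% of all windows and in those of Ugt2b36, Ugt2b5, Sult2a8, Gsta3, Gstm2, Gstp3 and Gstt1. These are letter matches and not measured binding.

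By age, 13 of 44 genes passed at 14 months, 3 higher and 10 lower (29.5%), against 15.3% of all genes, 8.37% higher and 6.88% lower. The lower genes were Ugt2b38, Ugt2b1, Ugt3a1, Ugt2b36, Ugt2b5, Sult2a8, Sult5a1, Sult1b1, Sult4a1 and Gstz1, and the higher genes were Gstm2, Gstt3 and Gsta2. The count was 2, 4 and 6 without the 14-month control replicates 1, 2 and 3, and 6 without the nearly identical pair. Gsta2 rose by 1.64 at 14 months (adjusted p = 0.0292, limma) and had a log2 fold change of 0.29 at 11 months (adjusted p = 0.842, limma). At 11 months, with 3 tumours and 2 controls, 0 of 44 genes passed, 9 had an unadjusted p under 0.05, and 1.92% of all genes passed. Without the 11-month tumour replicate 2 the count at 11 months was 6. All genes were not counted at single ages with arrays left out. The changed counts at both ages therefore have no background beside them. All 14 genes past the threshold with the ages combined had the same direction at both ages. The combined effect is the mean of the effects at both ages, so choosing genes by it favours this agreement.

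The difference between the ages was tested directly. The effect at 14 minus that at 11 months passed for 0 of 44 genes and for 0% of all genes by limma, with 1 of the 44 (Sult1a1) and 544 of all genes at an unadjusted p under 0.05. Tumours at 14 against 11 months gave 0 of 44 (4 at an unadjusted p under 0.05), against 0.0055% of all genes. Controls at 14 against 11 months gave 0 of 44 (0 at an unadjusted p under 0.05), against 0% of all genes (326 at an unadjusted p under 0.05).

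Tumours varied among themselves more than controls did. The median SD over the Ugt genes was 0.71 in tumours and 0.16 in controls. For Sult it was 0.65 in tumours and 0.17 in controls, for Gst 0.53 in tumours and 0.35 in controls, and for all genes 0.25 in tumours and 0.16 in controls. In each tumour 7 to 10 of the 11 Ugt genes lay below the range of the controls, against 5573 to 6631 of all 18193 genes. Outside that range in either direction were 63.6% to 90.9% of the Ugt genes, 61.5% to 76.9% of the Sult genes, 40% to 75% of the Gst genes and 52.1% to 66.2% of all genes.

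The 11-month tumour replicate 2 was nearest to the controls. Of the 12 genes lower in tumours it had the highest level of the 8 tumours in 10, and the 11-month tumour replicate 3 had the lowest in 6. The median distance from the control mean over the 44 genes was 0.31 in the 11-month tumour replicate 2 and 0.53 to 0.78 in the other tumours, and over all genes it was 0.21 in that tumour and 0.25 to 0.32 in the others.

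**Figure D5:**
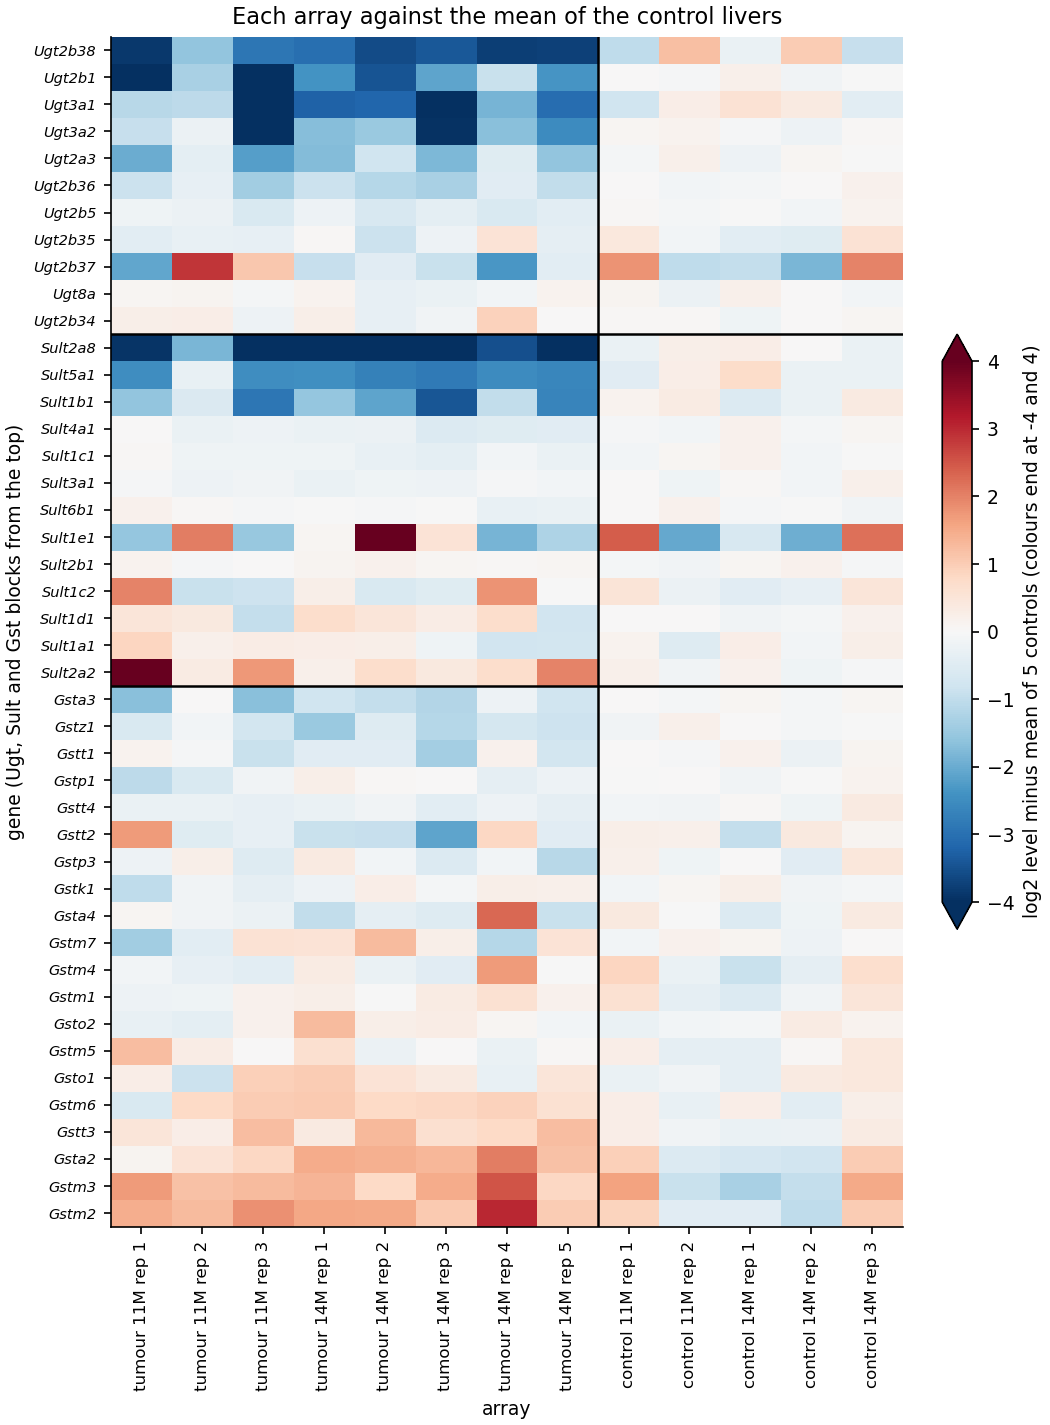
Difference of each array from the mean of the 5 controls, in log2 units, for all 44 genes in rows grouped by family, with tumours in the left columns and controls in the right. The Ugt block is mostly below the controls in every tumour, and the pair of nearly identical controls stands out in Gstm3, Ugt2b37 and Sult1e1. Colours end at -4 and 4.

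Genes that supply the donors were mostly not past the threshold. Of 5 genes for UDP-glucuronate supply and glucuronide cleavage 1 was higher, the lysosomal glucuronidase Gusb (1.86, adjusted p = 0.0174, limma). Of 10 measured genes for sulfate activation and handling 1 was lower, Papss2, which makes PAPS (-1.18, adjusted p = 0.0267, limma). Of 15 genes of glutathione synthesis and recycling the glutathione synthetase Gss was higher (0.88, adjusted p = 0.0192, limma), and Chac2, which degrades glutathione, was lower (-1.04, adjusted p = 0.0025, limma). The list medians were -0.05, -0.08 and 0.24, beside -0.05 for all genes, of which 10.3% were higher and 9.81% lower.

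Conjugating enzymes outside the 3 families are set beside the background of 10.3% of all genes higher and 9.81% lower. Of 7 measured membrane-bound and other glutathione transferases, Mgst2 and Hpgds were higher. Mgst2, a microsomal enzyme that conjugates leukotrienes, was at 4.76, 7.34 and 10.14 in the 11-month tumours and at 9.76, 10.60, 9.78, 5.97 and 9.74 in the 14-month tumours, against 4.71 to 4.93 in controls. The 11-month tumour replicate 1 lay at the control level and the other 7 above it, a log2 fold change of 3.48 (adjusted p = 0.0226, limma). Of 15 other conjugation enzymes 0 were higher and 5 lower, with a list median of -0.81. Among genes past the threshold the 4 largest falls were in Acsm1 and Glyat, which act in glycine conjugation, at -1.92 and -1.82, in Baat, which conjugates bile acids with taurine or glycine, at -1.24, and in the creatine-making Gamt at -0.98 (adjusted p from 0.0044 to 0.0244, limma). The methyltransferase Inmt and the acetyltransferase Nat8 had log2 fold changes of -2.79 and -2.15 and did not pass (adjusted p 0.104 and 0.109, limma). In the other direction, Nnmt of the same list had one of 1.43 and did not pass (adjusted p = 0.232, limma).

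Of 21 NRF2 target genes outside the 3 families, 6 were higher and 1 lower, with a list median of 0.45. Over all genes 10.3% were higher and 9.81% lower. The carbonyl reductase Cbr3 rose by 4.21 (adjusted p = 0.0020, limma), the exporter Abcc4 by 3.12, the sulfiredoxin Srxn1 by 2.36 and the heme oxygenase Hmox1 by 1.40. Osgin1 fell by 1.26 (adjusted p = 0.0249, limma). The other 14 of the list did not pass. Among them Gclc, Gclm and Gsr had log2 fold changes of -0.09, 0.07 and -0.15 (adjusted p from 0.558 to 0.826, limma). Slc7a11 had one of 1.59 (adjusted p = 0.126, limma). The nearly identical controls were at 7.17 and 7.17 in Cbr3 and the other controls at 5.70, 5.68 and 5.44, and the tumours were between 7.19 and 12.02.

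Of 23 transcription factors and receptors known to act on conjugation genes, 1 was higher and 5 were lower. The shares over all genes were 10.3% higher and 9.81% lower. Nfe2l2 itself was at 10.59, 10.97 and 11.68 in the 11-month tumours and at 10.81, 10.67, 11.21, 11.66 and 11.88 in the 14-month tumours, against 10.08 and 9.90 in the 11-month and 9.69, 9.02 and 10.01 in the 14-month controls. All tumours were above all controls, a log2 fold change of 1.38 (adjusted p = 0.0053, limma). Among factors past the threshold the 4 largest falls were in the estrogen receptor Esr1 (-2.14), the bile acid receptor Nr1h4 and the growth hormone receptor Ghr (-0.96 each) and the hepatocyte factor Cebpa (-0.87), with adjusted p from 0.0048 to 0.0264 by limma. The receptors Nr1i3 and Ppara and the factor Foxa1 had log2 fold changes of -1.77, -1.18 and -1.75 and did not pass (adjusted p from 0.0542 to 0.1055, limma). Hnf4a, which maintains hepatocyte identity, had a log2 fold change of -0.12 and did not pass (adjusted p = 0.547, limma).

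Of 9 measured exporters of conjugates, Abcc4 and Abcc1, which pump conjugates out of cells, were higher and Abcc6 was lower, with log2 fold changes of 3.12, 1.42 and -1.61 (adjusted p from 0.0037 to 0.0108, limma). The other 6 did not pass. Over all genes 10.3% were higher and 9.81% lower.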

How the data were processed

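Messenger RNA of 8 tumours and 5 control livers was measured on 13 one-colour arrays. The authors made the deposited log2 values with RMA in Partek software, per the submitters' processing notes; the software version is not given in the sources used here, and the base of the logarithm was read from the range of values (1.94 to 14.84). Of 45101 probe sets, 64 are array controls, 34945 name 1 gene and 932 name several. The number of arrays limits the precision.

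For each of 18193 genes the probe set with the highest mean was kept, with no filter on level. Of the 44 genes described, 12 were read by a probe set with a suffix for shared sequence. Group means over all arrays were fitted with limma 3.58.1 (R 4.3.3; lmFit, contrasts.fit, eBayes), with Benjamini-Hochberg adjustment over the 18193 genes. Ages were weighted equally, so fold changes need not equal differences of the means over 8 tumours and 5 controls. Probe sets naming several genes were tested over all probe sets. The fit was tested on simulated data.

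The genes, lists and tests were chosen with earlier results of these data known. Values by array, with those of the 8 tumours often as lowest, median and highest, were given for members past the threshold and changed at least 2-fold, up to 6 in each direction per family, and fold changes with adjusted p for the 3 smallest changes past it and the 3 largest not past it. Levels by array or as ranges were also given, outside this rule, for Gsta2, Gsta3, Gstm3, Gstp1, Sult2a2, Mgst2 and Nfe2l2. Up to 4 genes in each direction were named from each pathway list. Ugt2b37, Sult1e1, Gsta4, Hnf4a, Cbr3, Inmt, Nat8, Nnmt, Nr1i3, Ppara, Foxa1, Gclc, Gclm, Gsr, Slc7a11 and 4 macrophage markers got values after these were seen. All 44 genes matched RefSeq by Entrez ID, and promoter sequences are RefSeq's (GRCm38.p6); those of Gsta4, Gstt2, Sult2a2, Sult4a1 and Ugt3a2 were not used here.

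Alternatives were averaging the probe sets of a gene, probe sets without a shared-sequence suffix, array weights, a robust spread with a trend in eBayes, a shift of arrays to 1 median, repeated quantile normalisation, 14-month tumour replicates 1 and 2 averaged (their titles differ by a digit), each array left out, without the nearly identical controls, only arrays with numbered titles, leaving out the age term, leaving out genes below the median level, a minimum change of 2-fold, a threshold of 0.01 and, for single ages, only the arrays compared. Promoters were aligned with Biopython 1.88, and figures drawn with matplotlib 3.10.9 in Python 3.11.15.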

Additional observations from a re-analysis of the deposited data

Results flagged for a closer look

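In 12 of the 44 genes 1 sample stood apart from the rest of its group, by a gap to its nearest neighbour that was large against the whole range (Dixon's test). Of 132 groups tested 15 did so. For separate groups chance gives about 1 in 20, or 6.6. The groups here overlap, as the 14-month tumours are also part of all tumours, and the same sample can count in both. The 15 can therefore not be weighed against that number. The 14-month tumour replicate 4 accounted for 6 of the 15. It was highest in Gsta4 (12.499, next tumour 10.294), Gstm2 (12.214, next 11.052) and Gstm4 (11.776, next 10.407), the first pair of these both among the 14-month and among all tumours. It was lowest of the 14-month tumours in Ugt2b37 (4.29, next 5.701).

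The 11-month tumour replicate 2 was highest of all tumours in Sult5a1 (8.055, next 5.904) and Ugt2b38 (6.13, next 4.833). The 11-month tumour replicate 1 was highest in Sult2a2 (10.392, next 5.253) and lowest in Gstm6 (9.106, next 10.334). The 14-month tumour replicate 5 was highest of its age in Sult2a2 (5.253, next 3.972) and lowest of its age in Sult1d1 (10.265, next 11.312). The 14-month tumour replicate 1 was highest in Gsto2 (4.434, next 3.471), a level under the median of all probe sets. Among controls, the 14-month replicate 1 was lowest in Gstt2 (9.157, next 10.242) and Ugt2b34 (12.201, next 12.374). No gene moved in opposite directions in all tumours of the 2 ages.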

How the results depend on the processing

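Leaving out 1 array at a time gave 3 to 7 Ugt genes (3 without the 11-month control replicate 2), 2 to 4 Sult genes and 0 to 5 Gst genes. The Gst count was 0 without the 11-month control replicate 2, 1 without the 14-month control replicate 1, and 2 without the 14-month control replicate 2 or the 11-month tumour replicate 3. All genes then gave 1814 to 4359, with 1963 and 1814 without the 11-month control replicates 1 and 2, which leave 1 control at that age, assumed to vary like the other groups. At 11 months the range was 0 to 6 members (6 without the tumour replicate 2), and at 14 months 2 to 15. The 14-month count of 13 was 2, 4 and 6 without its control replicates 1, 2 and 3, 8 without either 11-month control, 7 without its tumour replicate 2 and 8 without its tumour replicate 3 or 5. Without both nearly identical controls there were 2 Ugt genes, 1 Sult gene, 6 members at 14 months and 1368 of all genes. With only arrays of numbered titles these were 2, 1, 0 and 1759. At an adjusted p under 0.01 there were 3 Ugt genes, 0 Gst genes, 2 members at 14 months and 1443 of all genes. With a change of at least 2-fold there were 1 Gst gene, 8 members at 14 months and 1224 of all genes. Differences between the ages gave 0 members in every setting run. The counts of all genes in this paragraph are for the ages combined. All genes were not counted at single ages in these settings. The member counts at 11 and at 14 months therefore have no background of their own here.

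Among genes named, Sult5a1 passed in all 26 settings and Ugt2b38 in all 25 it was fitted in. Gsta3 did not pass in 16 of 26, Ugt3a2 in 10, Ugt2b5 in 9, Gstt3 in 8 and Gstm2 in 5. Ugt2b35, at -0.28, was 0.024 without both nearly identical controls. Ugt2b37, at -0.25, ranged from -0.96 to 0.45 with 1 array left out, and was 0.16 with array weights, 0.45 without the 11-month control replicate 1, 0.31 without the 14-month control replicate 3, 0.42 without the 11-month tumour replicate 1, 1.02 without both nearly identical controls and 0.20 with numbered titles only. The cause was not tested. No paired analysis was possible because replicate numbers follow sample order and pair nothing. Low signal limits the 9 members below the median of all probe sets in both groups.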
